A study of Drosophila melanogaster with 18 samples.

Results

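Heterochromatin is the compact, gene-poor part of the genome around centromeres and on the Y chromosome, rich in satellite repeats and transposable elements. In the dm3 build of the Drosophila melanogaster genome some of the mapped sequence of this kind, but not all, is held in separate scaffolds. They are named Het after the chromosome or arm they belong to. The small chromosome 4 is a gene-bearing chromosome whose chromatin carries many heterochromatin proteins. STAP-seq takes short genomic fragments out of that setting: each fragment is placed in a reporter plasmid, and sequencing the 5′ ends of its transcripts locates the bases at which they begin, so the assay reads the capacity of the DNA itself to start transcription. The sites described here were chosen by chromosome name alone. They are all initiation sites of the genome-wide list that lie on 2LHet, 2RHet, 3LHet, 3RHet, XHet, YHet or chromosome 4, 832 of 13218 sites (6.29%). The other 12386 sites, on the large arms 2L, 2R, 3L, 3R and X, served for comparison.

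The labels name this list for 4 samples in S2 cells, an embryonic cell line with blood-cell-like properties: 2 samples whose plasmids carried the zfh1 enhancer and 2 control samples whose plasmids carried none. All 4 used fragments of about 100 to 250 bp sheared from the DNA of embryos of the y; cn bw sp strain, so the fragments come from the fly and not from the genome of S2 cells. The list is named for zfh1, which encodes a transcription factor with zinc fingers and a homeodomain, and holds the position, the strand and a serial number of each site, with no level and no column for a sample. There are thus no replicates, the depth is unknown, and neither the strength of a site nor its response to the enhancer has a value here. A second list, from fragments of bacterial artificial chromosomes, has no site on these scaffolds and was not used. Positions are 1-based in dm3. With no dm3 sequence or annotation used here, genes, exons, introns and repeats at the sites are not given, and no sequence is printed.

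Of the 832 sites, 266 lay on 2RHet, 187 on 3RHet, 181 on 3LHet, 83 on chromosome 4, 77 on XHet, 26 on 2LHet and 12 on YHet. Measured from each scaffold's first site to its last, all of them together had 81.0 sites per Mb (exact Poisson 95% interval 75.6 to 86.7), against 104.3 (102.4 to 106.1) on the large arms. The intervals cover counting error only, and the share of each scaffold that could be mapped or was covered by fragments is not known. Neighbours on either strand stood a median of 5672 bp apart, close to the 5267 bp of the large arms. The quartiles were farther apart, 597 and 16535 bp against 1320 and 12565 bp on the arms. The small lower quartile came from XHet (58 bp), chromosome 4 (57 bp) and 2RHet (781 bp). On 3RHet (1971 bp), 3LHet (2739 bp), 2LHet (3435 bp) and YHet (2090 bp) it lay above that of the arms.

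**Figure D1:**
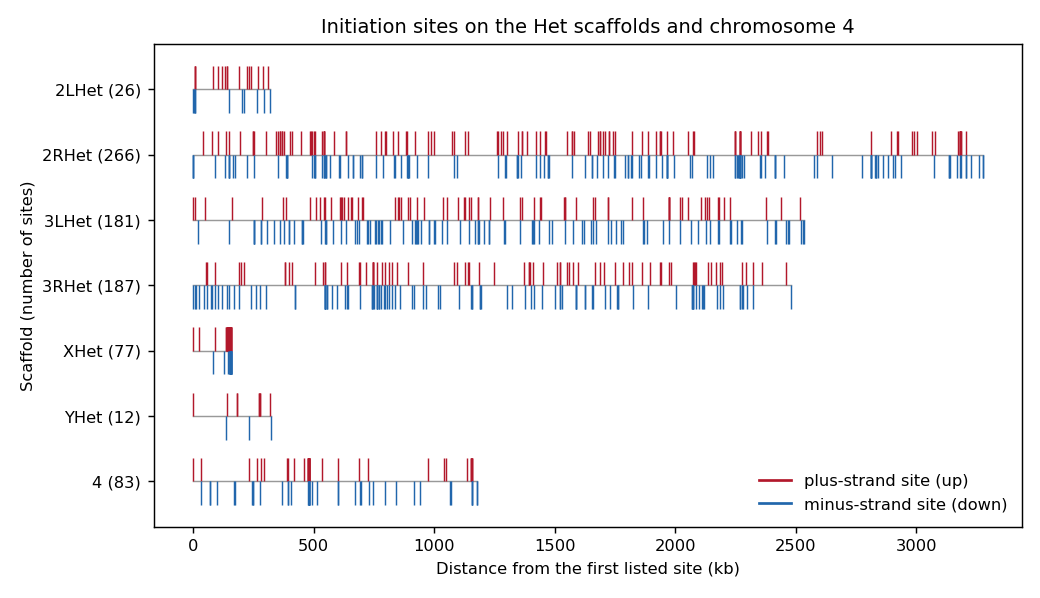
Each vertical line is 1 initiation site, drawn upward in red for the plus strand and downward in blue for the minus strand, against the distance in kb from the first listed site of its scaffold; the number of sites is given beside each name. Sites run along the whole of 2RHet, 3LHet and 3RHet, while those of XHet crowd at its last stretch.

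The 3 long scaffolds were covered rather evenly. Over 3 equal parts of its span, 2RHet had 87.9, 78.7 and 76.9 sites per Mb, 3LHet had 72.2, 79.3 and 62.8, and 3RHet had 93.0, 65.3 and 67.7, with overlapping Poisson intervals within each scaffold. The widest empty stretch was 124.7 kb on 2RHet, from 2649263 to 2774008, 100.5 kb on 3LHet, from 2283201 to 2383704, and 99.9 kb on 3RHet, from 2374424 to 2474289, about 4% of the span in each (3.81%, 3.97% and 4.02%). Chromosome 4 was denser in its middle part, with 112.1 sites per Mb (81.5 to 150.5), than in the first, with 45.9 (27.2 to 72.5), and the last, with 53.5 (33.1 to 81.8). The middle part holds the chain of 25 sites described below; outside that chain chromosome 4 had 58 sites, 49.4 per Mb (37.5 to 63.9).

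The smallest scaffolds can be given almost site by site. On YHet, the mapped part of the Y chromosome, the plus strand held 9 of the 12 sites. Its first site, at 23793 on the plus strand, was followed by 135.9 kb without a site, 42.4% of the span, and 4 plus-strand sites at 296035, 297955, 299152 and 300878 formed its only group. No YHet site had another within 1000 bp on either strand: its closest same-strand pair was 1197 bp apart and its closest opposite-strand pair, at 340953 and 344434, was 3481 bp apart. On 2LHet 5 of the 26 sites fell within 118 bp. They lay at 57129 (plus), 57147 (minus), 57189 (minus), 57215 (plus) and 57246 (plus), a stretch short enough for 1 fragment of the library. The next site was 73.9 kb away at 131130, and 19 of the 26 sites of 2LHet had no other site within 2000 bp.

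Chains, here sites on either strand joined by gaps of at most 2000 bp and counted from 3 sites upward, held 259 of the 832 sites (31.1%, Wilson 95% interval 28.1 to 34.4) in 42 chains. A further 152 sites stood in 76 groups of 2, and 421 (50.6%) stood alone. On the large arms 23.0% of the sites (22.3 to 23.8) lay in 804 chains and 49.9% stood alone. Without the longest chains of XHet and chromosome 4 the share was 22.4% (165 of 738 sites, 19.5 to 25.5), slightly below that of the arms, from which no chain was removed. With gaps of up to 5000 bp the order also turned, with 42.7% here and 48.5% on the arms. It did not turn with gaps of up to 1000 bp, with 24.9% here and 14.9% on the arms. Nor did it for chains of at least 5 sites, with 20.2% and 4.49%. The chains differed most in size. The longest chain of the large arms had 12 sites, whereas XHet had a chain of 69 and chromosome 4 a chain of 25. Of the other 40 chains of these scaffolds 1 had 11 sites, on 2RHet from 2267121 to 2270973, 11 had 5 to 9 sites and 28 had 3 or 4. The share of sites in chains differed between scaffolds, from 17.1% on 3LHet (12.3 to 23.3) and 20.3% on 3RHet to 27.8% on 2RHet, 45.8% on chromosome 4 and 89.6% on XHet (80.8 to 94.6).

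The XHet chain ran from 189291 to 203049, 69 sites in 13.8 kb or 5.01 sites per kb, with a median gap of 90 bp between neighbours on either strand. It was not uniform in strand. Its first 18 sites, from 189291 to 191848, were all on the plus strand. Over the first 8 kb 30 sites were on the plus strand and 1, at 192092, on the minus strand. From 197687 onward the strands were used about equally, with 18 plus-strand and 20 minus-strand sites. The cut at 8 kb was chosen after the sites had been seen, and close sites are not independent, so this change along the chain carries no test.

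The spacing within the XHet chain was irregular. Plus-strand neighbours stood 23 to 1757 bp apart with a median of 155 bp, and minus-strand neighbours 22 to 6183 bp apart with a median of 124.5 bp. Among the 1338 same-strand distances between any 2 of its sites, 1267 different values occurred, and the most frequent, 64 bp, occurred 4 times. No single repeat length thus stood out at the resolution of 1 base; whether the stretch holds diverged repeats cannot be seen from positions. The closest same-strand pair lay at 198551 and 198573 on the minus strand, 22 bp apart. The closest opposite-strand pair, minus at 201976 and plus at 201981, was 5 bp apart and pointed outward. Outside the chain XHet had 8 sites, 56.3 per Mb (24.3 to 110.9) with the chain's length also taken off the span, a rate whose interval overlaps those of the other Het scaffolds.

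The chromosome 4 chain was shorter and mixed in strand. It held 25 sites from 612039 to 615970, 6.36 per kb, with a median gap of 36 bp. It had 16 plus-strand and 9 minus-strand sites. Neighbours changed strand 15 times, against 21 times in the longer XHet chain, and no more than 5 in a row shared one. Between 2000 and 2999 bp from its first site lay 14 of its 25 sites, 9 plus and 5 minus. Among its 156 same-strand distances 153 were different, and none occurred more than 2 times. Its closest same-strand pair lay at 612820 and 612842 on the plus strand, 22 bp apart. The second chain of chromosome 4, with 7 sites from 1289492 to 1292682, held the closest opposite-strand pair of that chromosome, plus at 1292677 and minus at 1292682.

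**Figure D2:**
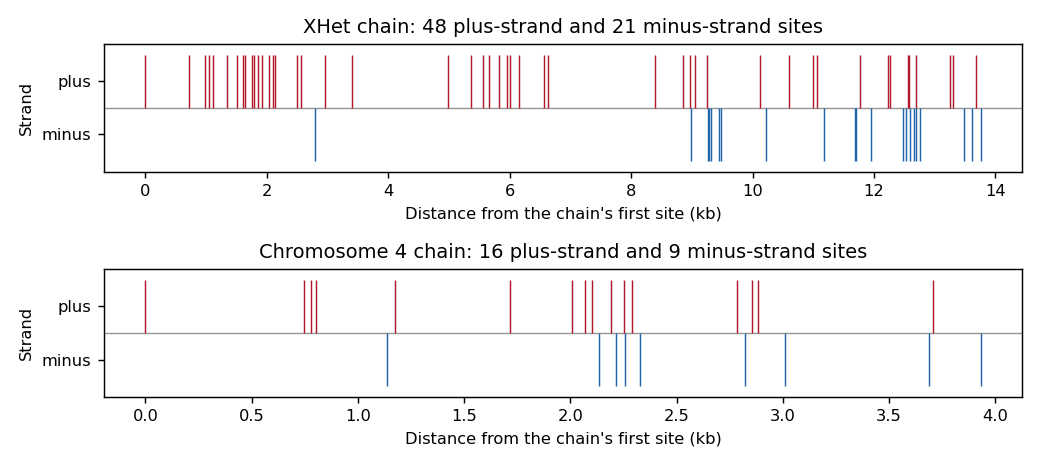
Sites of the 2 longest chains against the distance in kb from each chain's first site, plus-strand sites drawn upward and minus-strand sites downward. In the XHet chain 30 of the 31 sites of the first 8 kb are on the plus strand, and beyond that point 18 are plus and 20 minus. In the chromosome 4 chain plus-strand and minus-strand sites are mixed.

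The remaining chains were small. On 2RHet 6 sites lay within 586 bp, from 3182802 to 3183387, 5 of them on the plus strand; the last of these carries serial number 20, the lowest of all 832 sites. In the same chain a minus-strand site at 3182846 and a plus-strand site at 3182850 stood 4 bp apart, the closest opposite-strand pair of these scaffolds. On 3RHet 7 sites lay from 561131 to 562409, 5 of them on the minus strand, among them the site at 561969 with that scaffold's lowest number, 238. On 3LHet the longest chain held 5 sites from 1979920 to 1980661, 4 of them on the plus strand. Of the 42 chains 9 used 1 strand alone, the largest of them with 4 sites: that of YHet, and minus-strand sites on 2RHet from 386551 to 388701.

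The 17 chains of 2RHet held 74 of its sites and were found from its first site to near its last. At the start of the scaffold 3 minus-strand sites lay at 69 to 197, within 129 bp. A chain of 7 from 543673 to 545148 had 4 plus-strand and 3 minus-strand sites, and its opposite-strand pairs 22 to 250 bp apart were 4 divergent and 4 convergent. Near the other end 3 sites fell within 73 bp, from 3187979 to 3188051, with 2 convergent pairs and no divergent one. The chain of 11 sites on 2RHet, 5 plus and 6 minus, was looser, with a median gap of 203 bp and 2.85 sites per kb, and had 3 divergent and 5 convergent pairs. On 3RHet a chain of 6 from 2085666 to 2087847 had 5 minus-strand sites and 2 divergent pairs, and one of 5 from 757946 to 758877 also had 2 divergent pairs.

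The closest same-strand pairs lay 22 to 31 bp apart everywhere but on YHet. Same-strand sites came within 22 bp of each other on 2RHet, at 2813059 and 2813081, within 23 bp on 3RHet, at 561786 and 561809, within 26 bp on 3LHet, at 1980635 and 1980661, and within 31 bp on 2LHet. The large arms had the same minimum of 22 bp. Opposite-strand sites came closer, within 10 bp on 3RHet (plus at 758772, minus at 758782) and 18 bp on 2LHet, but no closer than 38 bp on 3LHet (plus at 1058494, minus at 1058532). Each of these last 3 pairs was convergent.

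Close neighbours on the opposite strand were more frequent than on the large arms over all 832 sites, but their share differed widely between scaffolds. Another site on the opposite strand lay within 100 bp of 102 of the 832 sites (12.3%, Wilson interval 10.2 to 14.7), against 988 of 12386 (7.98%) on the arms (Fisher's exact test, two-sided, p = 3.80e-05, Benjamini-Hochberg adjusted over the 5 comparisons of these sites with the arms 9.49e-05). Without the XHet chain the share was 10.2% (Fisher's exact p = 0.0338, adjusted 0.0563), and without the chains of XHet and chromosome 4 it was 8.27% (adjusted exact p = 0.780). Here and below, p-values for a part of the sites were adjusted with those of the other comparisons over all 832 sites. The miss at 0.0563 depends on that choice. No chain was removed from the arms, and taking out runs of close sites lowers the share by construction. Chromosome 4 had 30.1% (25 of 83 sites), XHet 31.2% (24 of 77) and 2RHet 12.4% (33 of 266, 8.97 to 16.9). On 2LHet it was 19.2% (8.51 to 37.9), while 3LHet had 2.21% (4 of 181, 0.863 to 5.54) and 3RHet 5.88% (11 of 187, 3.32 to 10.2). The 8.27% without both long chains thus joins scaffolds above the arms (2RHet, 2LHet) and below them (3LHet). These tests run across sites of 1 list, which are not replicates and not independent where they lie close together, so their p-values are likely too small.

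For close neighbours on the same strand the 2 longest chains and the other sites lay on opposite sides of the arms. Over all 832 sites 15.0% had one within 100 bp, against 14.3% on the arms (adjusted Fisher's exact p = 0.574). Without the XHet chain the share fell below that of the arms, to 10.6% (adjusted exact p = 0.00627), and without both long chains to 8.81%, 65 of 738 sites (adjusted exact p = 3.63e-05). Chains are runs of close sites and none was removed from the arms, so a lower share is built into this removal. These p-values therefore cannot show that the remaining sites differ from the arms. On 3LHet 3.31% of the sites (1.53 to 7.04) and on 3RHet 7.49% (4.51 to 12.2) had such a neighbour, and on 2RHet 12.8% (9.29 to 17.3). XHet had 57.1% (46.0 to 67.6) and chromosome 4 26.5% (18.2 to 36.9). The pooled share near that of the arms thus joins scaffolds below it (3LHet, 3RHet), above it (XHet, chromosome 4) and with intervals that hold it (2RHet, 2LHet).

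**Figure D3:**
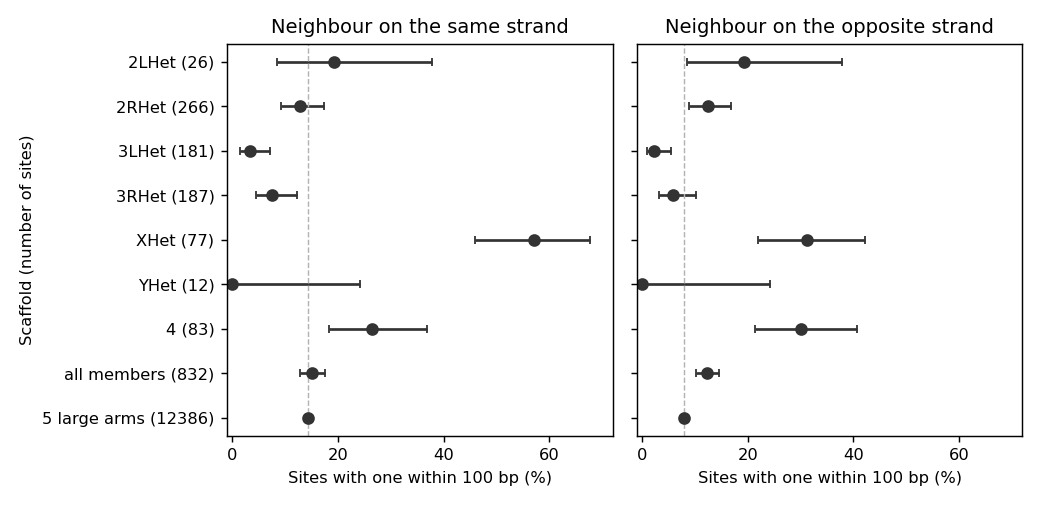
Share of sites (in %) with another site within 100 bp on the same strand (left) and on the opposite strand (right), for each scaffold, for all 832 sites and for the 5 large arms (dashed line); bars are Wilson 95% intervals and the number of sites is given beside each name. XHet and chromosome 4 lie above the arms in both panels, and 3LHet lies below them in both.

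Pairs of opposite-strand sites can point away from each other (divergent, the minus-strand site on the left) or toward each other (convergent). Back-to-back promoters of neighbouring genes are a known source of divergent starts in the compact fly genome. Of 815 opposite-strand pairs 22 to 250 bp apart on the large arms, 528 were divergent (64.8%, 61.4 to 68.0). On the Het scaffolds and chromosome 4 this was so for 57 of 129 pairs (44.2%, 35.9 to 52.8, Fisher's exact p = 1.45e-05, adjusted 7.26e-05). A site can belong to several pairs, so the pairs are not independent. The p-value is likely too small and the interval too narrow. Convergent pairs thus outnumbered divergent ones, with 24 against 14 on XHet, 22 against 12 on chromosome 4 and 17 against 13 on 2RHet. The reverse held on 3LHet, with 7 divergent and 2 convergent pairs, on 3RHet, with 7 and 6, and on 2LHet, with 4 and 1; YHet had no such pair.

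Much of this difference lay in the 2 longest chains. They held 67 of the 129 pairs, 23 divergent and 44 convergent. Outside them 34 pairs were divergent and 28 convergent (54.8%, adjusted Fisher's exact p against the arms 0.164). When each site was allowed in 1 pair only, 21 of 42 pairs were divergent, against 321 of 517 (62.1%) on the arms (adjusted exact p = 0.174). This version keeps both chains, has fewer pairs and takes the closest pairs first. Outside the chains the divergent share thus differed from that of the arms by -9.95 percentage points, against -20.6 points for all pairs, and this smaller difference did not pass the threshold.

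The divergent share was nearer to that of the arms for the closest pairs than for pairs more than 100 bp apart. At 1 to 50 bp divergent pairs made up 45% of 40 pairs here and 47.6% of 313 on the arms, and at 51 to 100 bp 55.3% of 38 and 60.3% of 237. At 101 to 250 bp the arms had 307 divergent and 101 convergent pairs, 75.2% divergent (70.8 to 79.2). The Het scaffolds and chromosome 4 had 23 and 43 at that distance, 34.8% divergent (24.5 to 46.9), and without the 2 longest chains 17 and 14, 54.8% (37.8 to 70.8). At 101 to 150 bp 5 of the 6 pairs outside these chains were divergent (83.3%, 43.6 to 97.0), an interval that holds the 77.9% of the arms. At 151 to 200 bp the share outside these chains was 41.7% of 12 pairs, against 72.8% on the arms. At 201 to 250 bp it was 53.8% of 13 pairs, against 73.2%. The split by distance was not tested.

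**Figure D4:**
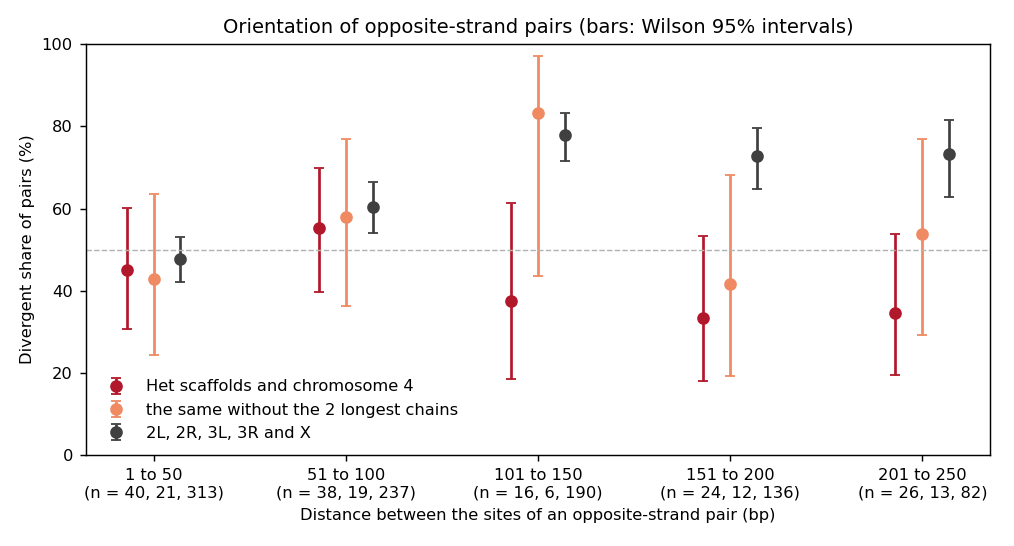
Divergent share (in %) of opposite-strand pairs by the distance in bp between their sites, for the Het scaffolds and chromosome 4 (red), for the same without the 2 longest chains (orange) and for the 5 large arms (grey); bars are Wilson 95% intervals, and the numbers of pairs stand under each distance in that order. The groups lie close together up to 100 bp, and beyond it the red points stay under 40% while the arms lie above 70%; the orange points, on 6 to 13 pairs each, lie between 41.7% and 83.3% there.

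Same-strand pairs were the larger class on the arms, where opposite strands made up 815 of the 2204 pairs 22 to 250 bp apart (37.0%). Here it was 129 of 296 pairs (43.6%, 38.1 to 49.3), a difference at the threshold (Fisher's exact p = 0.0299, adjusted 0.0499). These pairs share sites as well, so the p-value is likely too small. XHet went against the others, with 33.0% of 115 pairs on opposite strands, and without its chain the share was 50.3% of 181 pairs (adjusted exact p = 0.000966). That chain holds 77 same-strand and 38 opposite-strand pairs, and no chain was removed from the arms. A higher share is thus built into this removal, and its p-value cannot show that the remaining pairs differ from the arms. Leaving out 2RHet gave 41.9% (adjusted exact p = 0.172) and leaving out chromosome 4 41.7% (adjusted exact p = 0.215), so the call over all 832 sites depends on single scaffolds.

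Plus-strand sites were 395 of 832 (47.5%, 44.1 to 50.9), against 50.3% on the arms (adjusted Fisher's exact p = 0.154). Without the XHet chain the share was 45.5% (347 of 763, adjusted exact p = 0.0186), and without both long chains 44.9% (331 of 738, adjusted exact p = 0.00744). The XHet chain has 48 plus-strand and 21 minus-strand sites and that of chromosome 4 has 16 and 9. No chain was removed from the arms, so a lower share is built into this removal. These 2 p-values therefore cannot show that the remaining sites differ from the arms, and sites of 1 list are not replicates. Minus-strand sites were more numerous on 3LHet, 106 to 75, on 3RHet, 109 to 78, and on 2RHet, 143 to 123. Outside its chain chromosome 4 had 34 minus-strand and 24 plus-strand sites. The plus strand held more sites on 2LHet, 16 to 10, on YHet, 9 to 3, and on XHet outside its chain, 6 to 2.

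The serial numbers run from 1 to 13218 over the whole list, and what orders them is not stated. Few of these sites carried a low number. Of the 10% of the list with the lowest numbers, 1 to 1322, 25 sites lay here, 3.005% of the 832 (2.04 to 4.40), against 10.5% of the sites of the large arms (9.94 to 11.02). Within numbers 1 to 100 there was 1 such site and within 1 to 500 there were 8. In numbers 1323 to 2644 the share was 8.89% (7.14 to 11.02), and in 2645 to 3966 it was 11.8% (9.76 to 14.1). Without both long chains 3.12% of the sites carried such a low number, and on the Het scaffolds alone 3.20%. These shares carry no test.

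The 25 low-numbered sites were spread over 5 scaffolds, 9 on 2RHet, 8 on 3LHet, 5 on 3RHet, 2 on XHet and 1 on chromosome 4. Of them 12 stood alone and 7 lay in chains. After number 20 on 2RHet came 202 on 2RHet at 1362869 (plus), 219 on 3LHet at 1041276 (plus), 238 on 3RHet and 280 on chromosome 4 at 364984 (plus). The lowest numbers of XHet, 392 at 202970 and 592 at 201556, both on the plus strand, lay in the mixed end of its chain. The lowest on 2LHet was 1681, at 197992 on the minus strand, and on YHet 2483, at 23793. Higher numbers cannot be compared between scaffolds in this way, since they increasingly follow the text order of chromosome name and start. Such runs had a median length of 146 numbers at numbers 3967 to 5288 and of 559 at 6610 to 7931, and numbers 10889 to 13206 form 1 run, so that all 38 sites of 2RHet among them carry numbers 11755 to 11792. Within numbers 1 to 1322 no such run exceeded 11 numbers.

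**Figure D5:**
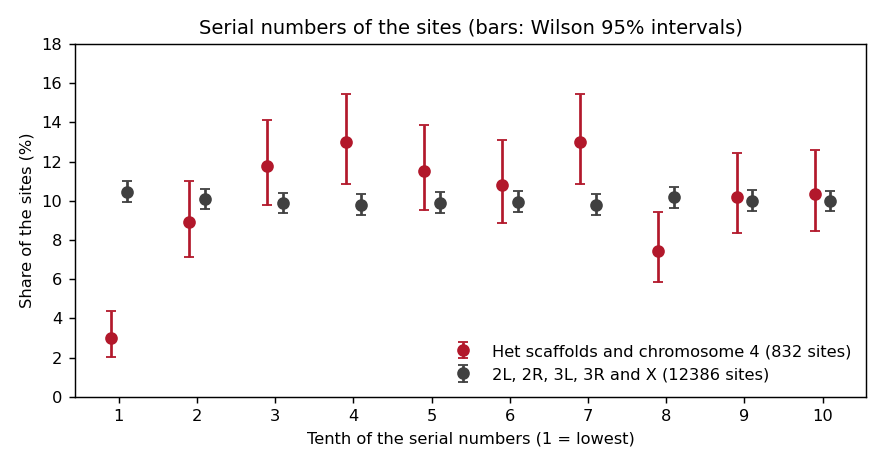
Share (in %) of the 832 sites on the Het scaffolds and chromosome 4 (red) and of the 12386 sites on the large arms (grey) in 10 equal ranges of the serial numbers, with Wilson 95% intervals. The red point of the lowest range lies at 3.005% against 10.5% for the arms; the higher ranges depend on the text order of chromosome names.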

How the data were processed

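The genome-wide list was used as deposited by the authors: each site has a single-base start and end, a serial number in its name and a strand, in dm3 per the submitters' processing notes, which also name CASAVA 1.9.1 and Bowtie 0.12.9 without a role. Site calling, filters and pooling of samples are not given in the sources used here. The values are positions, another kind of unit than counts, so no level was tested.

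Sites were grouped with Python 3.11.15, numpy 2.4.6, pandas 2.3.3 and scipy 1.17.1, and the code was tested on simulated pairs. Chains have gaps of at most 2000 bp. Pairs lie 22 to 250 bp apart, 22 bp being the smallest same-strand distance in the list. The 5 comparisons with the arms used two-sided Fisher's exact tests with Benjamini-Hochberg adjustment and a threshold of 0.05. For an alternative, the p-value of the comparison concerned was adjusted with those of the other comparisons over all 832 sites. The other comparisons were not recomputed for that alternative, so adjusted values near the threshold depend on this choice. Shares have Wilson and rates exact Poisson 95% intervals. Sites named are, per scaffold, the ends of the longest chain, the lowest serial number and the closest pairs, with the remaining sites of YHet and of the 2LHet chain, the widest gaps, further chains and further low-numbered sites named after their positions were seen. The members, lists and tests were chosen with earlier results of these data known.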

Additional observations from a re-analysis of the deposited data

How the results depend on the processing

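No paired analysis was possible because the list holds no value for a sample. Leaving out each chromosome or scaffold in turn was chosen after seeing the data.

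The divergent share (44.2%) stayed below that of the arms in all 12 alternatives that gave a different set of pairs. It passed the threshold in 10, with adjusted exact p from 3.11e-10 to 0.174 over all 12. The threshold was missed without the longest chains of XHet and chromosome 4 (54.8%) and with each site in 1 pair (50%). All 10 that passed kept sites of at least 1 of these chains and let pairs share sites, so they do not show the difference apart from these. The opposite-strand share of close pairs (43.6%) stayed above that of the arms in its 12 such alternatives but missed the threshold in 10: Het scaffolds only, that is without chromosome 4 (41.7%), chromosome 4 only (50%), without the highest-numbered 25% of sites (41.5%), pairs at 1 to 250 bp (46.3%) and at 22 to 500 bp (41.1%), each site in 1 pair (42.4%), and without 2LHet (43.2%), 2RHet (41.9%), 3LHet (42.9%) or 3RHet (43.3%). Its adjusted exact p ran from 0.000966 to 0.215. The 2 alternatives that passed left out the XHet chain, which raises this share by construction. On chromosome 4 only, Fisher's exact p was 0.0309 before adjustment and 0.0516 after, so that miss depends on how the adjustment was made.

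The opposite-strand neighbour share (12.3%) missed the threshold without the XHet chain (10.2%), without both long chains (8.27%) and without the highest-numbered 25% (7.82%, where the arms fell to 5.96%). On the Het scaffolds only (10.3%) and without XHet (10.3%) it passed narrowly, each with an adjusted exact p of 0.0499. Its adjusted exact p ran from 2.30e-08 to 0.780. The same-strand neighbour share (15.0%) fell below that of the arms without the XHet chain (10.6%), without both long chains (8.81%), on the Het scaffolds only, that is without chromosome 4 (13.8%), and without XHet (10.7%). It passed the threshold above the arms on chromosome 4 only (26.5%), within 1000 bp (30.3%) and without 3LHet (18.3%). Taking the long chains from these scaffolds and none from the arms lowers both neighbour shares by construction. The plus-strand share (47.5%) passed the threshold below the arms without the XHet chain (45.5%), without both long chains (44.9%) and without XHet (45.2%). Each of these takes out more plus-strand than minus-strand sites, which lowers the share by construction. In the other 9 of its 12 alternatives that gave a different set of sites it missed the threshold. Sites in chains were 24.9% with gaps of 1000 bp (arms 14.9%) and 42.7% with 5000 bp, where the arms had more (48.5%). In chains of at least 5 sites they were 20.2% (arms 4.49%). All of these are set by the construction of the chains. Without both long chains the share was 22.4% (arms, with all their chains, 23.0%), an alternative added after seeing the data. The causes of the other changes were not tested.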
